A study of Mus musculus with 6 samples.

Results

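The mouse microRNAs (miRNAs) mmu-miR-99a, mmu-miR-99b, mmu-miR-100, mmu-miR-125a and mmu-miR-125b, written without mmu- from here on, are cut from the same primary transcripts as copies of let-7. In the small RNA profile of N2A cells, every entry named mmu- whose base name was one of these 5 was taken, all arms and variants included, which gave 10 of the 1080 entries listed (1046 after rows repeating the values of another row were merged). All 10 are distinct entries. miR-125b has a single 5p entry and a 3p entry for each of its genes, miR-100 is represented by its 5p arm, and the others have an entry for each arm.

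N2A (Neuro2A) is a line derived from a mouse neuroblastoma. There were 3 libraries from cells given si-circCpsf6, an siRNA directed at the circular RNA circCpsf6, and 3 from cells given the control siRNA si-NC, each siRNA at a final concentration of 100 nM in a lipid reagent. The labels name no genotype, time or clone for either group, and the level of circCpsf6 was not analysed here. Separate cultures are not stated for the replicates. The p-values therefore cover only the spread among the libraries as sequenced, and that spread may be technical. Values are the authors' normalized read numbers, called normalized reads below. They summed to between 2516481 and 3219618 per library and do not give the read depth, which is unknown.

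Small RNA sequencing reads the mature miRNA, which Drosha and Dicer release from a hairpin in a longer transcript. miR-125 is the vertebrate counterpart of lin-4, the first miRNA found in Caenorhabditis elegans, where lin-4 and let-7 time development. In mammals miR-125b is abundant in brain and in differentiating neurons, and miR-99 and miR-100 are known as repressors of mTOR signalling, which promotes growth. Each hairpin of a shared transcript is processed on its own, so the mature products of a transcript can stand at different levels.

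The sequences are shown first because near-identity among them decides how firmly each level can be assigned. All 10 entries matched a mature miRNA by name in RefSeq (build GRCm38.p6). The 5p arms are given 5′ to 3′ with the seed, bases 2 to 8, which pairs with target mRNAs, in capitals.
miR-99a-5p: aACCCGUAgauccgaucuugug
miR-99b-5p: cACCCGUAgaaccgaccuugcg
miR-100-5p: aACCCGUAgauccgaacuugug
miR-125a-5p: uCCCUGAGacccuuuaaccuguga
miR-125b-5p: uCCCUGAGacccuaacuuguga
let-7a-5p: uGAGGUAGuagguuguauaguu
let-7c-5p: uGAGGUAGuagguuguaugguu
let-7e-5p: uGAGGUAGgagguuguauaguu

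miR-99a, miR-99b and miR-100 share the seed ACCCGUA, miR-125a and miR-125b share CCCUGAG, and the let-7 copies share GAGGUAG. The transcripts therefore join 3 different seeds. Counted from the 5′ end, miR-99a-5p and miR-100-5p differ at a single base (U16A, miR-99a base first), whereas miR-99a-5p and miR-99b-5p differ at 4 bases (A1C, U11A, U16C and U21C). miR-125a-5p has 24 bases and miR-125b-5p has 22, and they are identical over the first 13. let-7a-5p and let-7c-5p differ by A19G, and let-7a-5p and let-7e-5p by U9G. How reads were divided between near-identical miRNAs is not given in the sources used here, so the split between miR-99a-5p and miR-100-5p, and between let-7a-5p and let-7c-5p, is uncertain. An entry named as let-7a-5p with A19G repeated the values of let-7c-5p and was merged into it. The deposited entry for miR-99a-5p carries a suffix read here as a form 1 base shorter at the 3′ end than the sequence shown.

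The hairpins lie in 3 places, named here from GENCODE M21 (GRCm38), which is not the authors' build. On chromosome 17, Mir99b (17830188 to 17830257), Mirlet7e (17830352 to 17830444) and Mir125a (17830812 to 17830879) lie within 692 bases on the plus strand of the protein-coding gene Spaca6. Mir99b and Mirlet7e are intronic there, and Mir125a overlaps a Spaca6 exon in part. On chromosome 16, Mir99a (77598936 to 77599000), Mirlet7c-1 (77599657 to 77599750) and Mir125b-2 (77646273 to 77646343) lie in introns of the noncoding host gene Mir99ahg, over 47408 bases. Mir125b-2 also overlaps in part an exon of C130023A14Rik on the same strand, and Mir99a and Mirlet7c-1 lie opposite introns of the protein-coding gene Gm11146 on the other strand. On chromosome 9, Mir100 (41531425 to 41531504), Mirlet7a-2 (41536716 to 41536811) and Mir125b-1 (41581926 to 41582002) lie in introns of the noncoding transcript 3110039I08Rik, over 50578 bases. Mir125b-1 lies as well in an exon of the sense-intronic transcript Gm28119, and Mir100 lies opposite an exon of Gm48742, a long noncoding RNA on the other strand. miR-99b, let-7e and miR-125a each have 1 place in the RefSeq table. miR-125b-5p has one each on chromosomes 9 and 16, let-7c-5p is also made on chromosome 15, and let-7a-5p is also made on chromosome 13.

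N2A cells held all 5 miRNAs in both groups, with miR-99b far above the rest. In RNA from whole cultures, fewer cells holding a miRNA and less of it per cell cannot be told apart. Summed over the 10 entries, the value was 88347, 107689 and 88410 normalized reads in the si-circCpsf6 libraries and 122225, 113737 and 59836 in the si-NC libraries. Their part of the library was 3.20 ± 0.126% in si-circCpsf6 and 3.47 ± 0.951% in si-NC (SD, n = 3 each). The sums differed by -3784 normalized reads, less than the spread between replicates (two-sided exact permutation p = 0.9, the smallest that 3 against 3 libraries allow being 0.1). Leaving out si-NC replicate 3, the library with the lowest sum, gave a difference of -23166. It was 8029 when si-NC replicate 1 was left out and 3785 when si-NC replicate 2 was.

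miR-99b-5p, of the mTOR-repressing seed group, was listed at 51987, 69421 and 58802 normalized reads in si-circCpsf6 and at 86961, 72432 and 40397 in si-NC. The si-circCpsf6 libraries lay inside the range of the si-NC libraries, where replicate 3 was lowest and replicate 1 highest. Its rank among the 1046 entries was 11, 9 and 10 in the si-circCpsf6 libraries and 6, 8 and 15 in the si-NC libraries. It held 2.03 ± 0.165% of the library in si-circCpsf6 and 2.34 ± 0.669% in si-NC. Its log2 change, si-circCpsf6 minus si-NC on the log2(value + 1) scale as throughout, was -0.087 (SE 0.34, 95% interval -0.87 to 0.70, adjusted p = 0.992 by limma over all entries tested). Leaving out si-NC replicate 3 gave -0.41, and leaving out si-NC replicate 1 gave 0.14.

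miR-100-5p and miR-99a-5p, which carry the same seed as miR-99b-5p, stood at a far lower level. miR-100-5p was at 2232, 1773 and 2472 in si-circCpsf6 and at 2413, 1880 and 1770 in si-NC, so the groups covered almost the same range. Its log2 change was 0.095 (SE 0.27, 95% interval -0.52 to 0.71). miR-99a-5p was at 1402, 1747 and 2231 in si-circCpsf6 and at 2131, 2139 and 1689 in si-NC, with a log2 change of -0.16 (SE 0.28, 95% interval -0.80 to 0.47). The lowest and the highest of its 6 values both came from si-circCpsf6 libraries.

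The miR-125 members were intermediate. miR-125b-5p was at 16568, 16149 and 12808 in si-circCpsf6 and at 14644, 16762 and 9033 in si-NC. Only si-NC replicate 3 lay outside the range of 12808 to 16762. Its log2 change was 0.21 (SE 0.30, 95% interval -0.48 to 0.90) and became -0.055 without that library. miR-125a-5p was at 14402, 16147 and 10596 in si-circCpsf6 and at 14042, 18584 and 5998 in si-NC. The highest and the lowest value of miR-125a-5p were both from si-NC. Its log2 change of 0.22 (SE 0.42, 95% interval -0.76 to 1.19) was -0.26 without si-NC replicate 3.

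**Figure D1:**
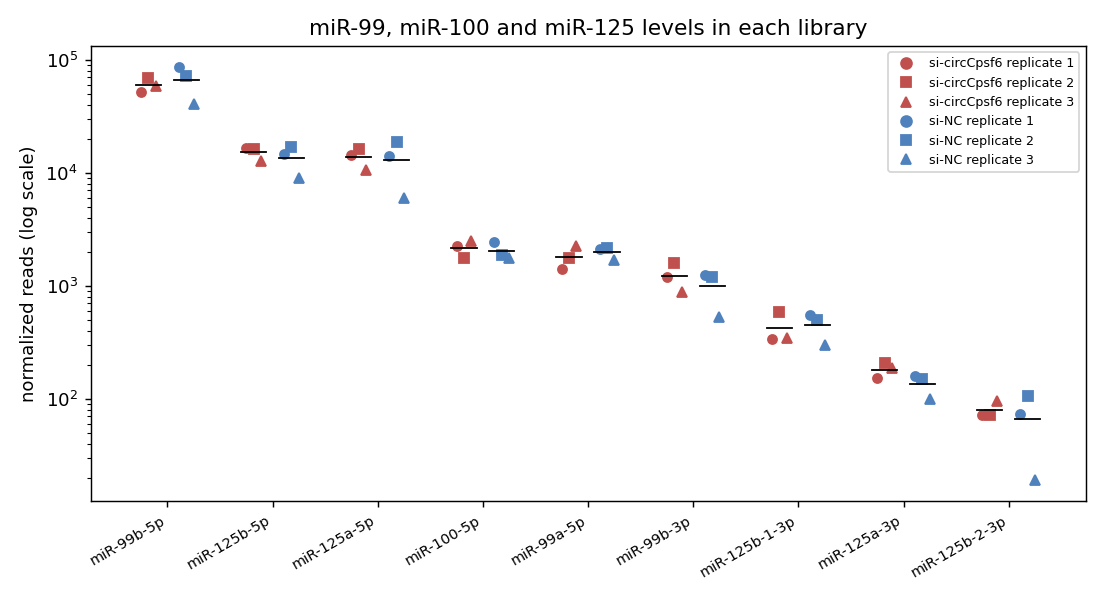
Normalized reads (log axis) of 9 of the 10 entries in each library, si-circCpsf6 left and si-NC right of each pair, with points for single libraries and a black line at the group mean (n = 3 each); miR-99a-3p, at 0 in 4 of 6 libraries, is left out. The groups overlap for every entry shown, and the si-NC replicate 3 triangle is the lowest si-NC point in each.

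The order of the levels was the same in 5 of 6 libraries, and si-NC replicate 2 had the exceptions given here. Since the mature 5p arms have 22 or 24 bases, read numbers are set side by side without a length correction. miR-99b-5p averaged 4.42 times miR-125b-5p over the 6 libraries and was above it in 6 of 6. miR-125b-5p and miR-125a-5p, next to each other in the order, did not differ beyond their spread, with a ratio of means of 1.08 and miR-125b-5p higher in 5 of 6 libraries. miR-125a-5p averaged 6.36 times miR-100-5p. miR-100-5p and miR-99a-5p also lay within their spread (ratio of means 1.11, miR-100-5p higher in 5 of 6), and these are the pair whose sequences differ at 1 base. The 5p arms were all above the 3p arms.

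The 3p arms, the less abundant products of these hairpins, are shown with bases 2 to 8 in capitals because only they separate the miR-125b genes.
miR-99b-3p: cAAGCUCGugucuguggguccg
miR-125a-3p: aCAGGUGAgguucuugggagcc
miR-125b-1-3p: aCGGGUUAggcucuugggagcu
miR-125b-2-3p: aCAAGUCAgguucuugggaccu
miR-99a-3p: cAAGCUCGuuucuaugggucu

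The 3p arms of miR-125b-1 (chromosome 9) and miR-125b-2 (chromosome 16) differ at 5 bases (G3A, G4A, U7C, C11U and G20C, the miR-125b-1 base first), while their 5p arm is the same. miR-125b-1-3p was at 339, 590 and 347 normalized reads in si-circCpsf6 and at 551, 494 and 301 in si-NC, and was above miR-125b-2-3p in every library. miR-125b-2-3p was at 72, 72 and 95 in si-circCpsf6 and at 73, 106 and 19 in si-NC. The value of 19 in si-NC replicate 3 stood below the other 5 libraries. The chromosome 9 product made up 83.4 ± 5.36% of the miR-125b 3p reads in si-circCpsf6 and 88.2 ± 5.86% in si-NC (SD, n = 3 each). The 3p share is not a measure of how much of the 5p arm each gene gave.

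miR-99b-3p was at 1193, 1580 and 874 in si-circCpsf6 and at 1249, 1191 and 529 in si-NC, with a log2 change of 0.35 (SE 0.41), or -0.046 without si-NC replicate 3. miR-125a-3p was at 152, 206 and 185 in si-circCpsf6 and at 158, 149 and 100 in si-NC, a log2 change of 0.43 (SE 0.40) that was 0.23 without si-NC replicate 3. Its groups overlapped through 1 library of each. As a percent of the library, miR-125a-3p was at 0.00538, 0.00640 and 0.00654 in si-circCpsf6 and at 0.00528, 0.00518 and 0.00397 in si-NC, where they did not overlap. It was singled out after its values were seen. The share of all entries without overlap on the percent scale was not computed. On the values as listed, where miR-125a-3p overlapped, it was 11.7% of the 916 tested entries. miR-99a-3p was listed at 4 in si-circCpsf6 replicate 2, at 3 in si-NC replicate 1 and at 0 in the other libraries, too low for a comparison.

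Set against its 5p arm, miR-99b-3p stood at 2.29%, 2.28% and 1.49% in si-circCpsf6 and at 1.44%, 1.64% and 1.31% in si-NC. The highest values were from 2 si-circCpsf6 libraries, and si-circCpsf6 replicate 3 lay within the si-NC range. The log2 ratio of the arms changed by 0.44 (SE 0.29, adjusted p = 0.993 by limma over 217 hairpins). For miR-125a the ratio averaged 1.36 ± 0.353% in si-circCpsf6 and 1.20 ± 0.437% in si-NC. For miR-125b, taken with its more abundant 3p entry miR-125b-1-3p, it averaged 2.80 ± 0.808% in si-circCpsf6 and 3.35 ± 0.408% in si-NC. Of the 4 member hairpins with both arms, 0 passed the limma test and 0 had an unadjusted p under 0.05, where 0% and 2.3% of all 217 hairpins did.

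By limma over 916 entries, all 10 members were tested and 0 passed in either direction at an adjusted p of 0.05. Over all entries 0 passed as well (0%), and 57 (6.22%) had an unadjusted p under 0.05, against 0 of the 10 members, whose lowest unadjusted p was 0.316 (miR-125a-3p). The groups did not overlap for 0 of the 10 members and for 11.7% of all entries. Log2 changes of the members ran from -0.16 to 0.56, 7 above and 3 below 0, with a median of 0.16. Over all tested entries the median was 0.086 and the 5th to 95th percentiles ran from -1.64 to 1.99. Written as a fold, the 95% interval was 0.546 to 1.62 for miR-99b-5p, 0.717 to 1.87 for miR-125b-5p, 0.592 to 2.28 for miR-125a-5p, 0.699 to 1.63 for miR-100-5p and 0.573 to 1.39 for miR-99a-5p. Each of these includes no change, and each leaves room for a change of the size at either end.

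The library si-NC replicate 3 stood apart for these miRNAs. It was the lowest si-NC library for 9 of the 10 entries and the lowest of all 6 for 8, against 48.0% and 28.8% of the 916 tested entries. Among the 373 tested entries with a mean of 100 or more these shares were 49.3% and 36.2%. Relative to the mean over 6 libraries on the log2 scale, si-NC replicate 3 was at -1.06 for miR-125a-5p, -0.63 for miR-125b-5p and -0.61 for miR-99b-5p. It was at -0.23 for miR-100-5p and -0.14 for miR-99a-5p. Without it, 8 members had log2 changes below 0 and 2 above, with a median of -0.19, against a median of -0.041 over all entries. In that limma fit 0 members passed and 0 had an unadjusted p under 0.05, where 4 of the 916 entries (0.437%) passed and 132 (14.4%) had an unadjusted p under 0.05. The neuronal and neuroendocrine miRNAs, of which 9 of 9 were listed, summed to between 304858 and 502027 in si-circCpsf6 and between 185562 and 362307 in si-NC, lowest in replicate 3. Most of that sum was miR-7a, at 238394, 365691 and 200332 in si-circCpsf6 and 182942, 239162 and 89818 in si-NC, and miR-7b, also lowest in si-NC replicate 3. Of the other neuronal miRNAs, miR-124, miR-218 and miR-138 had their highest si-NC value in that library. miR-9, miR-128, miR-132 and miR-375 had their lowest si-NC value there. miR-132 was at 4374, 5068 and 3775 in si-circCpsf6 and at 2967, 3338 and 2910 in si-NC, without overlap. miR-124 was at 420, 302 and 725 in si-circCpsf6 and at 190, 212 and 572 in si-NC, and miR-218 was at 19366, 12752 and 25074 in si-circCpsf6 and at 18006, 15010 and 35802 in si-NC. miR-138 was at 9427, 6918 and 7799 in si-circCpsf6 and at 4121, 3350 and 7181 in si-NC. Of 10 miRNAs that mark other cell types 8 were listed, with sums of 4401 to 6728 in si-circCpsf6 and 4313 to 6229 in si-NC. Nearly all of that was miR-126a, known from endothelium, while miR-142a and miR-223 of blood cells had no entry and miR-122 of liver reached at most 0 in si-circCpsf6 and 5 in si-NC. miR-200c, known from epithelium, was at 10, 16 and 7 in si-circCpsf6 and at 30, 87 and 39 in si-NC, so its groups did not overlap. The part of any of these in the members' values was not tested.

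**Figure D2:**
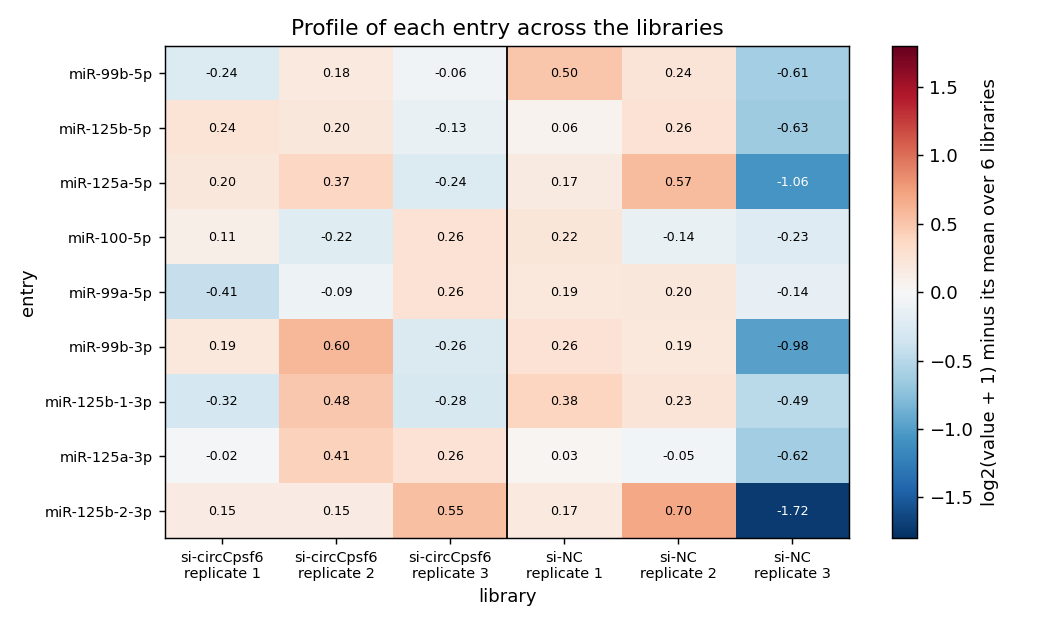
Each cell gives log2(value + 1) minus its mean over the 6 libraries for 9 entries (rows, by level) in the si-circCpsf6 libraries (left of the line) and the si-NC libraries (right). All 9 are below their mean in si-NC replicate 3, from -0.14 for miR-99a-5p to -1.72 for miR-125b-2-3p.

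The members' profiles over the libraries were set against each other and against other miRNAs. As a measure of likeness, the root mean square difference of centred log2 profiles over the 6 libraries was 0.23 between miR-125a-5p and miR-125b-5p and 0.26 between miR-99a-5p and miR-100-5p, the smallest distances among the 5p arms. It was 0.27 between miR-99b-5p and miR-125b-5p, 0.34 between miR-99b-5p and miR-125a-5p of chromosome 17, 0.39 between miR-99a-5p and miR-125b-5p, and 0.55 between miR-99a-5p and miR-125a-5p. The root mean square of a profile about its own mean was 0.24 for miR-99a-5p and 0.20 for miR-100-5p. Their distance of 0.26 was larger than both, so it does not show that they varied together. For miR-125a-5p and miR-125b-5p it was 0.53 and 0.31, both above their distance of 0.23. Among 365 other entries with a mean of 100 or more, the profile nearest to miR-99b-5p was that of miR-106b-3p (0.038), followed by miR-741-3p (0.089) and miR-3068-3p (0.12). miR-125b-5p was nearest to miR-465b-3p (0.11), miR-30a-5p (0.12) and miR-93-5p (0.12), and miR-125a-5p to miR-877-3p (0.12), miR-140-3p (0.13) and miR-378a-5p (0.14). miR-100-5p was nearest to miR-143-3p (0.073), miR-301a-5p (0.14) and miR-345-3p (0.14). miR-99a-5p was nearest to miR-470-5p (0.15), then to let-7c-5p (0.18), which shares its chromosome 16 transcript, and to miR-181c-3p (0.18). All entries of a library share its depth and normalization, so with 6 libraries these are descriptions only.

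The let-7 list holds let-7a, let-7c and let-7e, the other products of these transcripts, beside copies not placed on them here. It had 10 tested main-arm entries (let-7a to let-7g, let-7i, let-7j and miR-98), of which 0 passed over all entries. Their log2 changes were below 0 for 10 of 10, with a median of -1.26, and the si-circCpsf6 libraries lay wholly below the si-NC libraries for 9, as they did for 4.91% of all tested entries. The list was known to be lower from earlier results on the same data, so its direction is no independent evidence. With si-NC replicate 3 left out, 3 of the 10 passed (let-7f-5p, let-7g-5p and let-7i-5p, each lower in si-circCpsf6) and 9 had an unadjusted p under 0.05, among 4 of 916 entries that passed. Adjusted over all entries, the p was 0.265 for let-7a-5p, 0.735 for let-7e-5p and 0.948 for let-7c-5p by limma with all 6 libraries.

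**Figure D3:**
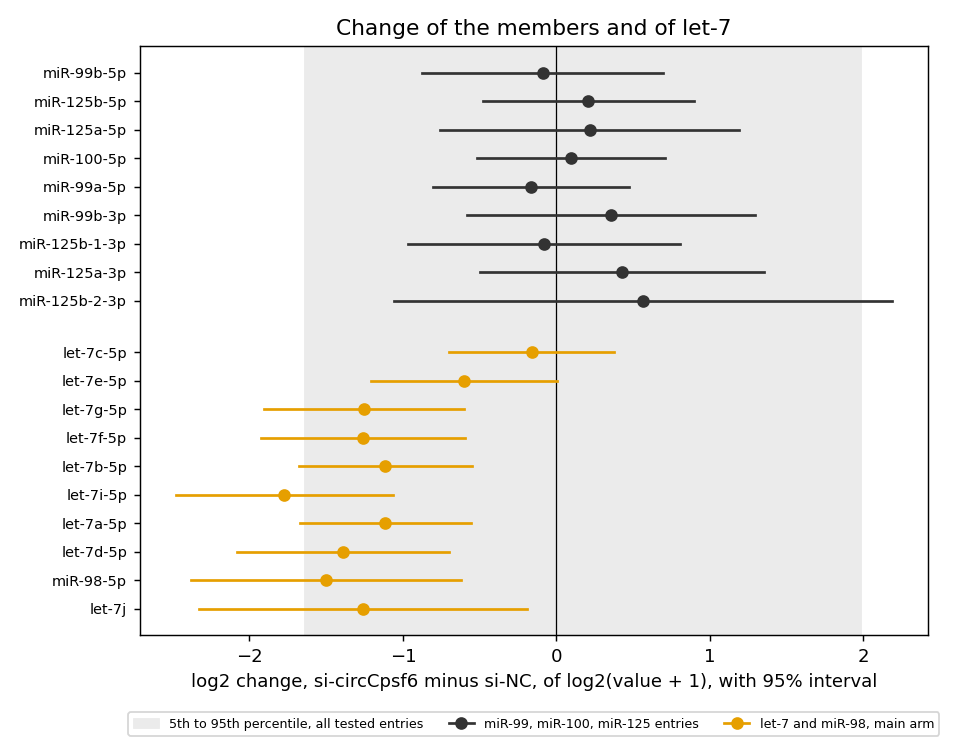
Log2 change, si-circCpsf6 minus si-NC on the log2(value + 1) scale, with its 95% interval from limma (n = 3 each), for 9 member entries (black) and 10 let-7 and miR-98 entries (orange); the grey band spans the 5th to 95th percentile of the 916 tested entries. The black points lie between -0.16 and 0.56 with intervals across 0, and the orange points lie between -1.77 and -0.16.

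Whether let-7 and its partners moved together was asked within each library, where scaling cancels. The let-7 list was already known to be lower, so the p-values of ratios to its partners are no independent evidence of that fall. Taken alone, the log2 change was -0.60 for let-7e-5p, -1.12 for let-7a-5p and -0.16 for let-7c-5p. On chromosome 17, let-7e-5p was at 4726, 4872 and 4904 normalized reads in si-circCpsf6 and at 8303, 8686 and 5478 in si-NC. Its log2 ratio to the mean log2 value of miR-99b-5p and miR-125a-5p was -2.53, -2.78 and -2.35 in si-circCpsf6 and -2.07, -2.08 and -1.51 in si-NC. Every si-circCpsf6 library was below every si-NC library, as for 4.91% of all tested entries taken singly. The share among such ratios over other miRNAs was not computed. The ratio was 0.63 times that of si-NC (log2 difference -0.67, exact permutation p = 0.1, two-sided and the smallest these libraries can give, or 0.15 after Benjamini-Hochberg adjustment over the 3 ratios tested). Without si-NC replicate 3, which had the highest ratio, the log2 difference was -0.48. Of the 3 miRNAs of this place summed, let-7e made up 6.21 ± 0.714% in si-circCpsf6 and 8.96 ± 1.50% in si-NC. miR-99b made up 76.3 ± 3.04% in si-circCpsf6 and 76.7 ± 3.60% in si-NC, and miR-125a made up 17.5 ± 3.01% in si-circCpsf6 and 14.3 ± 3.77% in si-NC (SD, n = 3 each). The difference stood against each partner: the log2 ratio of let-7e to miR-99b averaged -3.63 in si-circCpsf6 and -3.11 in si-NC, and that of let-7e to miR-125a -1.48 in si-circCpsf6 and -0.66 in si-NC. The partners themselves did not separate by group, with log2 ratios of miR-99b to miR-125a of 1.85, 2.10 and 2.47 in si-circCpsf6 and 2.63, 1.96 and 2.75 in si-NC.

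On chromosome 9, let-7a-5p was at 1157, 1066 and 1356 in si-circCpsf6 and at 2507, 2581 and 2631 in si-NC. Its log2 ratio to the mean of miR-100-5p and miR-125b-5p was -2.39, -2.33 and -2.05 in si-circCpsf6 and -1.25, -1.12 and -0.60 in si-NC, again without overlap. This ratio was 0.415 times that of si-NC (log2 difference -1.27, exact permutation p = 0.1, adjusted 0.15), and the difference was -1.07 without si-NC replicate 3. Since let-7a-5p is made from chromosome 13 too, and miR-125b-5p from chromosome 16, the ratio does not belong to the chromosome 9 transcript alone. The log2 ratio of miR-100-5p to miR-125b-5p overlapped between the groups, at -2.82 ± 0.412 in si-circCpsf6 and -2.70 ± 0.412 in si-NC.

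On chromosome 16, let-7c-5p was the most abundant let-7 copy, at 36203, 35816 and 39830 in si-circCpsf6 and at 44183, 41163 and 39676 in si-NC. Its log2 ratio to the mean of miR-99a-5p and miR-125b-5p was 2.91, 2.75 and 2.90 in si-circCpsf6 and 2.98, 2.78 and 3.34 in si-NC. These overlapped (log2 difference -0.18, exact permutation p = 0.4, adjusted 0.4), and the difference was -0.029 without si-NC replicate 3. The let-7c value also holds what chromosome 15 gives. Differences between these 3 ratios were not tested.

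**Figure D4:**
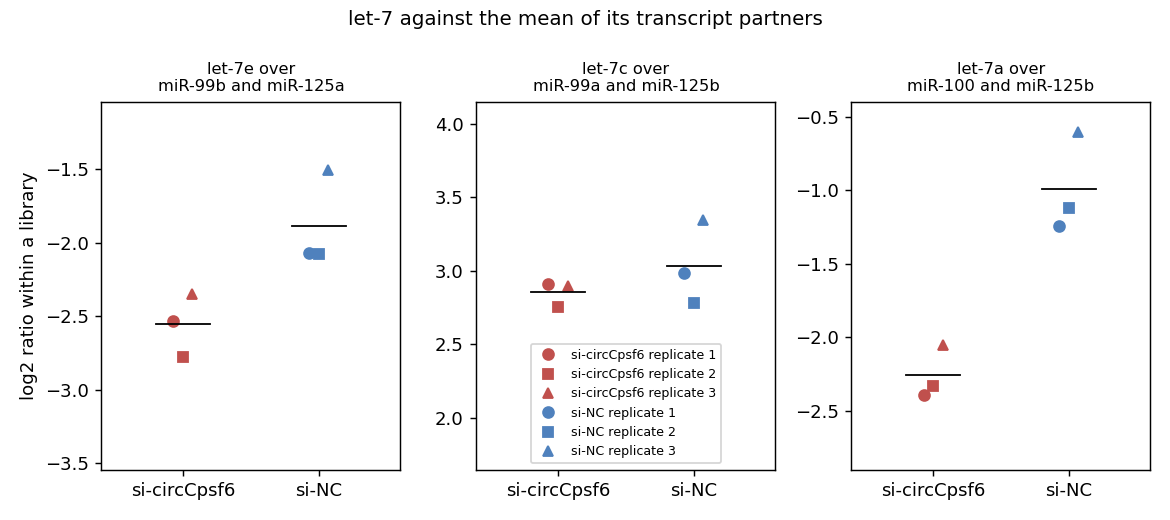
Log2 ratio, within each library, of a let-7 copy to the mean log2 value of the miRNAs that share its transcript, for si-circCpsf6 (left) and si-NC (right), with points for libraries and a black line at the group mean (n = 3 each; all panels span the same number of log2 units). The groups are apart for let-7e and let-7a, by -0.67 and -1.27, and overlap for let-7c.

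Seed relatives outside these transcripts were read beside the members. miR-351-5p, which carries the miR-125 seed and comes from the X chromosome, was at 2677, 7552 and 2161 normalized reads in si-circCpsf6 and at 3003, 3213 and 301 in si-NC. Its log2 change of 1.30 (SE 0.90) did not pass (adjusted p = 0.801 by limma), and si-NC replicate 3 was again lowest. miR-10a-5p and miR-10b-5p, whose sequences resemble miR-99 and miR-100 shifted by a base, were scarce. miR-10b-5p was at 19, 3 and 0 in si-circCpsf6 and at 30, 8 and 23 in si-NC, and miR-10a-5p was at 44, 0 and 0 in si-circCpsf6 and at 55, 11 and 0 in si-NC.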

How the data were processed

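Each library's deposited column holds normalized read numbers in whole units. Per the file headers the authors normalized them, and they were treated as a score, not as raw counts. The build named in the submitters' processing notes is mm9. Aligner, counting and normalization: not given in the sources used here. Libraries were made from total RNA with a TruSeq small RNA kit, per the labels' protocols, and samples were grouped by title.

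Rows repeating an earlier row's values were merged when above 0 in at least 3 libraries or alike in name. Entries with a mean of 1 or more were tested by limma 3.58.1 (trended variance, R 4.3.3) on log2(value + 1), group as the only term, Benjamini-Hochberg adjustment over all 916, threshold 0.05. This scale understates changes of low entries. The ratio of the arms was tested likewise over 217 hairpins, with the variance trend on the lower arm's mean. Within-library ratios and sums were compared by exact permutation (scipy 1.17.1). Steps were tested on simulated data, with the outcome not given here. In the limma simulations every library had the same noise spread, so none stood apart as si-NC replicate 3 did. Members and lists were chosen with earlier results of these data known. Others named were let-7 copies, seed relatives, marker miRNAs and the 3 nearest profiles of each base name. Sequences come from RefSeq (GRCm38.p6).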

Additional observations from a re-analysis of the deposited data

How the results depend on the processing

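No member entry passed the limma test under any of 17 alternatives. In all, 0 of the 916 entries passed in limma's main form (57 at an unadjusted p under 0.05), 31 with array weights, which gave si-NC replicate 3 a weight of 0.146, and 0 to 4 with 1 library left out, 4 without si-NC replicate 3. Signs of the members' small log2 changes were unstable: 20 of 169 values under the alternatives had the other sign. With array weights the log2 change was -0.11 for miR-125a-5p, -0.0058 for miR-100-5p, -0.071 for miR-125b-2-3p and -0.75 for miR-99a-3p, and that of the miR-99a arm ratio was -0.13. With arm entries summed, miR-125b-1-3p and miR-125b-2-3p were added together, and the sum had a log2 change of 0.0017. Set against -0.080 for miR-125b-1-3p alone, it counts among the 20. The cause of the sign changes was not tested. With 1 library left out the log2 change ran from -0.41 to 0.14 for miR-99b-5p, -0.055 to 0.39 for miR-125b-5p, -0.26 to 0.56 for miR-125a-5p, -0.0095 to 0.23 for miR-100-5p, -0.34 to -2.6e-04 for miR-99a-5p, -0.046 to 0.57 for miR-99b-3p, 0.23 to 0.55 for miR-125a-3p, -0.34 to 0.092 for miR-125b-1-3p, -0.15 to 1.06 for miR-125b-2-3p and -0.67 to 0.77 for miR-99a-3p. The arm ratio ran from -0.51 to 0.88 for miR-99a and -0.046 to 0.48 for miR-125a, and the difference of the summed values from -23166 to 8029. The log2 differences of let-7e and let-7a against their partners ran from -0.77 to -0.48 and from -1.40 to -1.07 and stayed below 0 with other pseudocounts.

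With the replicate number as a block, 0 entries and 0 members passed. The paired exact p was 0.25 for each let-7 ratio, the smallest that 3 pairs allow. Same-numbered libraries had correlations of 0.047, 0.48 and 0.40 in their deviations. Those of differently numbered libraries ran from -0.44 to 0.18. Each si-circCpsf6 library thus correlated most with the si-NC library of its own number, by little for replicate 1 (0.047 against -0.040 and -0.0028). Deviations from a group mean sum to 0 within the group, so these correlations are not independent. The labels state no pairing, and whether the numbers pair the samples was not tested. The summed value gave a paired p of 0.75. Read depth is unknown, which leaves the counting error of the lowest entries, such as miR-99a-3p, unmeasured.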
